A study of Mus musculus with 7 samples.

Results

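Atrial cardiomyocytes (CMs) were the cells that the authors annotated as atrial CMs in wild-type mouse hearts, with cells marked for exclusion left out. They numbered 10478 of 52881 annotated cells, of which 5437 of 27445 came from the CD1 strain and 5041 of 25436 from the C57BL/6 strain. None of the cells marked for exclusion (0 in CD1 and 79 in C57BL/6) was an atrial CM. The chambers were dissected apart, as LA and RA (left and right atrium) and LV and RV (left and right ventricle). Several hearts of a stage were pooled per chamber, and the samples were tagged with MULTI-seq barcodes, which are DNA oligos anchored in the cell membrane, before droplet capture. No sample in these comparisons carried a mutation or a treatment. The atrioventricular canal and the ventricular septum were collected with the LV.

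Atrial CMs are the contractile cells of the atrial walls. The authors told them from ventricular CMs by Sln, a small inhibitor of the sarcoplasmic calcium pump, and told ventricular CMs by Myl2. Other markers in use for atrial CMs are Myl7, the atrial regulatory myosin light chain, and Nppa, the precursor of atrial natriuretic peptide. Before birth these cells proliferate and draw much of their energy from glycolysis, and around birth CMs turn to oxidative metabolism, enlarge and leave the cell cycle. The measures described here are the UMI count of a cell (the number of distinct RNA molecules counted), the number of detected genes, the percentage of UMIs on mitochondrial genes and the percentage on ribosomal protein genes. The mitochondrial percentage also serves as a quality measure, since cells that leak cytoplasmic RNA keep the RNA inside mitochondria.

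Cells came from 5 experiments, each pooled separately. CD1 E9.5 to P3 held 4481 atrial CMs in 5 capture wells and 13 stages, and C57BL/6 E10.5 to P4 held 4629 in 4 wells and 13 stages. The 3 smaller experiments, of 1 well each, were CD1 E18 and P1 (276 atrial CMs), CD1 P2 to P9 (680) and C57BL/6 P5 to P9 (412). The median atrial CM had 16195 UMIs in CD1 E9.5 to P3, 19878 in C57BL/6 E10.5 to P4, 23844 in CD1 E18 and P1, 30243.5 in CD1 P2 to P9 and 15380 in C57BL/6 P5 to P9. Since depth differed between experiments, each one was read on its own. A cell barcode was shared between wells by 6 atrial CMs of CD1 E9.5 to P3 and by 0 in the other experiments. A stage and atrium was used where it had at least 10 atrial CMs, which left 21 of 26 atrial samples in CD1 E9.5 to P3 and 18 of 26 in C57BL/6 E10.5 to P4. Each of these is 1 pooled sample, so the stage was the unit of every test, and the p-values measure the spread between stages and not between litters.

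The deposited tables for these hearts give no gene values, so the annotation could be set only against the chamber barcode, and Myl7, Nppa and Sln were not analysed here. Of all atrial CMs, 10300 carried an LA or RA barcode (98.3%, exact 95% interval 98.0 to 98.5%). The experiments were not alike in this, since 66 of the 412 atrial CMs of C57BL/6 P5 to P9 carried an LV or RV barcode. Some atrial samples also held many cells labelled as ventricular CMs. The LA sample of P2 in CD1 E9.5 to P3 held 26 ventricular and 14 atrial CMs, and the LA sample of E9.5 held 43 and 1. In CD1 P2 to P9 ventricular CMs made up 15.4% of the CMs of the LA sample of P2 and 19.4% of the RA sample, and in C57BL/6 E10.5 to P4 they made up 55.1% at E10.5 in the RA. The trends with stage and the differences of the 2 large experiments were also computed without atrial samples over 10% ventricular CMs. Few atrial CMs came from the youngest atria, with 1 (LA) and 8 (RA) at E9.5 and 1 in each atrium at E10.5 in CD1, and from 0 to 22 per atrial sample up to E13.5 in C57BL/6. The paper states that a cluster of its ventricular CMs also held atrial CMs of E9.5 and E10.5. The labels of these stages may therefore count some atrial CMs as ventricular.

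The share of atrial CMs among the kept cells of an atrial sample was described first. Among the samples used, it ran from 8.70% (LA of P2) to 72.3% (LA of E14.5) in CD1 E9.5 to P3, with a median of 55.5%. The shares of C57BL/6 E10.5 to P4 ran from 17.9% (LA of P3) to 76.2% (RA of P1), with a median of 50.7%. No trend with stage was detected over 13 stages, with Spearman's rho of 0.24 in CD1 and 0.43 in C57BL/6 (permutation test, adjusted p = 0.426 and 0.165). Without atrial samples over 10% ventricular CMs rho was -0.11 over 11 stages and -0.63 over 9 stages (permutation test, adjusted p = 0.755 and 0.0845), so the direction itself depended on these samples. In the later experiments shares were from 9.55 to 51.2% in CD1 P2 to P9 and from 5.0 to 42.5% in C57BL/6 P5 to P9, again over samples with at least 10 atrial CMs. Below that minimum they were 1.59% (RA of P4) and 5.0% (RA of P9) in the former. In the latter they were 3.13% (LA of P5), 5.52% (RA of P7) and 60% of 15 cells (LA of P8). Shares depend on how completely each tissue was digested, and the digestion time differed between samples, so composition and recovery cannot be told apart.

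The mitochondrial percentage of atrial CMs rose around birth in both strains. Up to E16.5 it stayed near one level in CD1 E9.5 to P3, and it was higher at every stage from E17.5 on, and in C57BL/6 E10.5 to P4 the higher levels began at E17.5 and grew to P3. The mean over stages was 10.1 ± 1.03% (SD, n = 7) before birth and 15.6 ± 1.37% (SD, n = 4) after it in CD1, a ratio of 1.55. In C57BL/6 it was 8.70 ± 1.19% (SD, n = 6) and 15.2 ± 2.19% (SD, n = 4), a ratio of 1.75. Without atrial samples over 10% ventricular CMs the CD1 mean after birth was 16.4 ± 0.859% (ratio 1.63) and the C57BL/6 mean before birth 8.76 ± 1.32% over 5 stages (ratio 1.74). Embryonic and postnatal stages did not overlap in either strain, with stage values up to 12.1% before birth and from 13.9% after it in CD1, and up to 10.05% and from 12.2% in C57BL/6.

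In the LA of CD1 E9.5 to P3 the median mitochondrial percentage was 9.90 at E12.5, 8.97 at E13.5, 9.80 at E14.5, 9.03 at E15.5, 10.2 at E16.5, 12.9 at E17.5, 15.5 at P0, 15.8 at P1, 10.6 at P2 and 16.0 at P3. In the RA it was 9.0 at E11.5, 10.7 at E12.5, 10.3 at E13.5, 10.0 at E14.5, 9.36 at E15.5, 10.2 at E16.5, 11.3 at E17.5, 14.8 at P0, 17.6 at P1, 17.1 at P2 and 17.4 at P3. Both atria therefore showed the step between E16.5 and P0, and the low postnatal value was the LA sample of P2, the one with more ventricular than atrial CMs. Why it was low was not tested. In the LA of C57BL/6 E10.5 to P4 the medians were 8.82 at E14.5, 6.61 at E15.5, 7.59 at E16.5, 10.6 at E17.5, 10.7 at E18.5, 11.7 at P1, 16.0 at P2, 19.4 at P3 and 16.4 at P4. In the RA they were 8.39 at E10.5, 7.35 at E15.5, 8.35 at E16.5, 9.41 at E17.5, 9.39 at E18.5, 12.7 at P1, 14.2 at P2, 14.8 at P3 and 16.7 at P4. In both atria E15.5 was lowest, and the highest value was at P3 in the LA, over 15 cells, and at P4 in the RA.

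**Figure D1:**
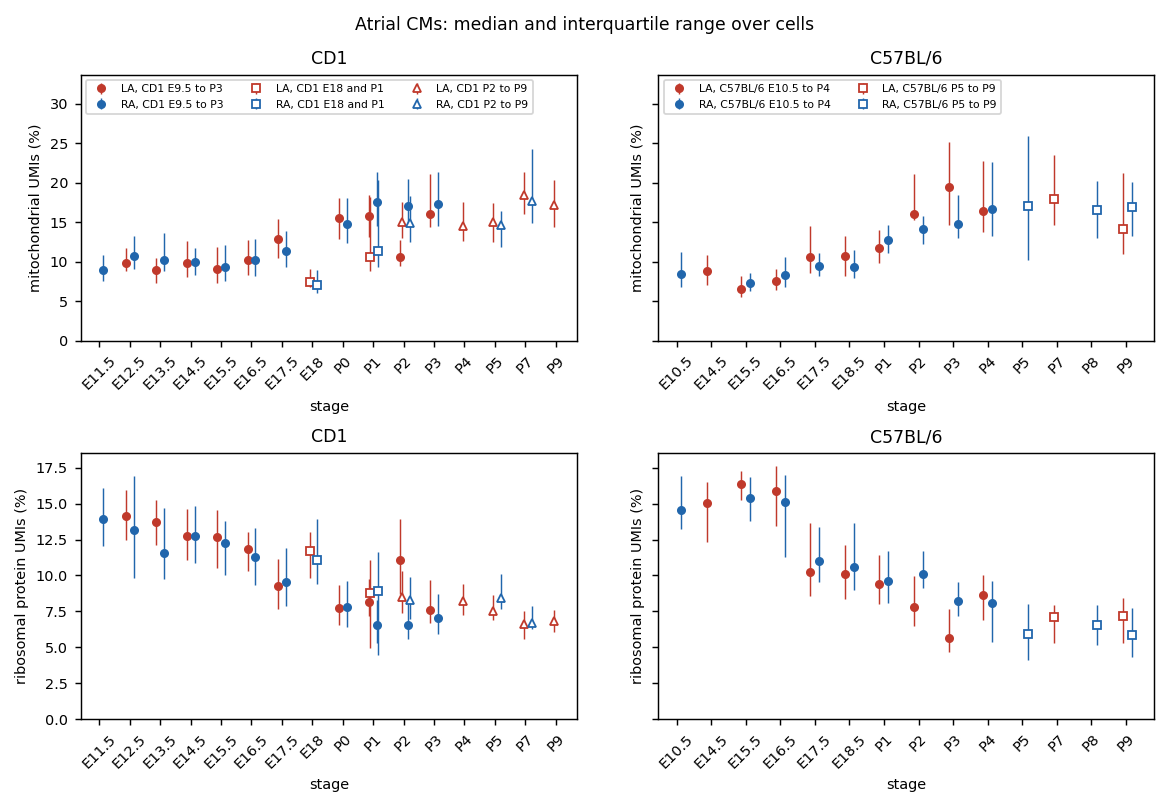
Median percentage of UMIs on mitochondrial genes (top) and on ribosomal protein genes (bottom) in atrial CMs by stage, for CD1 (left) and C57BL/6 (right); bars are the interquartile range over the cells of a sample, red is LA, blue is RA, and marker shapes are experiments. In CD1 E9.5 to P3 the stage mean of the mitochondrial percentage went from 10.2% at E16.5 to 15.2% at P0, while the ribosomal protein percentage went from 11.5% to 7.79%.

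Spearman's rho of the mitochondrial percentage with the order of the stages was 0.85 over 11 stages in CD1 E9.5 to P3 and 0.89 over 10 in C57BL/6 E10.5 to P4 (permutation test, adjusted p = 0.00253 in each, over 10 relations). Pearson's r was 0.88 and 0.91, and 0.82 and 0.92 without the 2 stages farthest from the middle. Leaving out atrial samples over 10% ventricular CMs gave rho of 0.87 in CD1 and 0.93 over 9 stages in C57BL/6 (permutation test, adjusted p = 0.00206 in each). The relation was found inside each of the 9 wells taken alone, with rho from 0.77 to 0.98. In cells of matched depth, with 10000 to 20000 UMIs, rho was 0.80 in CD1 and 1.0 over 8 stages in C57BL/6 (permutation test, exact for 8 stages, adjusted p = 0.0094 and 0.00035). Postnatal hearts were pipetted more vigorously in the dissociation than embryonic ones, so stage and handling cannot be told apart.

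The smaller experiments continued the postnatal levels with 1 exception. In CD1 P2 to P9 the 8 sample medians lay between 14.6 and 18.4%, and in C57BL/6 P5 to P9 the 5 lay between 14.1 and 18%. The exception was P1 in CD1 E18 and P1, where the medians were 10.6% in the LA and 11.3% in the RA, against 15.8 and 17.6% at P1 in CD1 E9.5 to P3. At E18 of CD1 E18 and P1 they were 7.50% in the LA, over 12 cells, and 7.04% in the RA, over 202. Both lay below every embryonic sample median of CD1 E9.5 to P3, of which the lowest was 8.97% and those of E17.5 were 12.9% (LA) and 11.3% (RA). UMI counts of atrial CMs at P1 were close between these 2 experiments, 17888.5 against 18037 in the LA and 15731 against 14632.5 in the RA. The other cells of the same samples were also lower in CD1 E18 and P1, at 3.18 and 3.87% against 5.10 and 6.14%, and the ratio of atrial CMs to other cells was 3.33 against 3.09 in the LA and 2.93 against 2.86 in the RA. At P2, 2 experiments could be set side by side as well, with 10.6% (LA) and 17.1% (RA) in CD1 E9.5 to P3 and 15.1% and 14.9% in CD1 P2 to P9, at UMI counts of 12987, 11833, 37924.5 and 27320.

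The share of atrial CMs above 25% mitochondrial UMIs, close to the 30% limit of the deposited cells, was from 0 to 5.88% in the 13 embryonic samples of CD1 E9.5 to P3 and from 0 to 10.7% in the 8 postnatal ones. In C57BL/6 E10.5 to P4 it was from 0 to 10.8% in 10 embryonic samples and from 2.27 to 26.7% in 8 postnatal ones. The limit therefore lay nearer to the cells of the postnatal samples, and of these 2 experiments the highest share was in the LA of P3 in C57BL/6. Within samples, cells with fewer UMIs tended to have a higher mitochondrial percentage, with a median rho across cells of -0.31 over 44 samples of at least 30 atrial CMs, negative in 41. A cell's total enters both measures.

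The ribosomal protein percentage moved the other way. It fell from a mean of 12.3 ± 1.51% over 7 embryonic stages to 7.82 ± 0.695% over 4 postnatal stages (SD over stages) in CD1 E9.5 to P3, and from 13.7 ± 2.50% over 6 stages to 8.44 ± 1.12% over 4 stages in C57BL/6 E10.5 to P4. Ribosomal protein genes encode the protein part of the translation machinery and are highly expressed in growing and dividing cells. In CD1 the stage means were 13.9% at E11.5, 13.6% at E12.5, 12.7% at E13.5, 12.8% at E14.5, 12.5% at E15.5, 11.5% at E16.5, 9.41% at E17.5, 7.79% at P0, 7.34% at P1, 8.81% at P2 and 7.33% at P3, with the value of P2 again resting in part on the LA sample of 14 cells. In C57BL/6 the stage means were 14.6% at E10.5, 15.02% at E14.5, 15.9% at E15.5, 15.52% at E16.5, 10.6% at E17.5, 10.4% at E18.5, 9.53% at P1, 8.96% at P2, 6.92% at P3 and 8.34% at P4. The largest drop between neighbouring stages in C57BL/6 was thus between E16.5 and E17.5, before birth.

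The rank correlation with stage was -0.96 in CD1 and -0.88 in C57BL/6 (permutation test, adjusted p = 0.0002 and 0.00253), with Pearson's r of -0.94 and -0.91, and -0.92 and -0.94 without the 2 outermost stages. It was from -0.88 to -0.96 inside the 9 wells. With atrial samples over 10% ventricular CMs left out it was -0.98 and -0.93 (permutation test, adjusted p = 1e-04 and 0.00206), and the CD1 mean after birth was 7.25 ± 0.525%. A rise in mitochondrial UMIs lowers every other percentage, so the ribosomal share was also taken of the non-mitochondrial UMIs alone. This share fell from 13.7 ± 1.56% to 9.34 ± 0.610% in CD1 and from 14.9 ± 2.54% to 9.99 ± 1.06% in C57BL/6 (SD over the same stages). Across the cells of a sample the mitochondrial and ribosomal protein percentages were negatively related in 44 of 44 samples, with a median rho of -0.64, and of -0.53 for the share of non-mitochondrial UMIs. Stage accounted for 38.5% of the variance of the ribosomal protein percentage among atrial CMs of CD1 E9.5 to P3 and for 29.3% in C57BL/6 E10.5 to P4, against 26.5% and 17.8% for the mitochondrial percentage.

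UMI counts and detected genes per atrial CM were lower after birth. The geometric mean over stages in CD1 E9.5 to P3 was 17416 UMIs before birth and 14492 after it, a ratio of 0.832, and in C57BL/6 E10.5 to P4 it was 23642 and 15068, a ratio of 0.637. Detected genes had means of 3919 ± 353 and 3337 ± 164 in CD1 and of 4351 ± 397 and 3282 ± 379 in C57BL/6 (SD over the same stages). The highest sample medians were those of the youngest atria, with 23690 UMIs and 4705 genes in the RA of E11.5 in CD1 and 29257.5 UMIs and 5078 genes in the RA of E10.5 in C57BL/6. The RA sample of E10.5 is the one in which 55.1% of the CMs were ventricular, and without it the highest in C57BL/6 was the LA of E14.5, with 25131 UMIs and 4485 genes. The lowest were in the RA of P2 in CD1, with 11833 UMIs and 3099 genes, and in the LA of P3 in C57BL/6, with 9528 UMIs and 2571 genes.

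The rank correlation of detected genes with stage was -0.87 in CD1 and -0.93 in C57BL/6 (permutation test, adjusted p = 0.00253 and 0.0015). For UMI counts it was -0.65 and -0.88 (permutation test, adjusted p = 0.0475 and 0.00253). Without atrial samples over 10% ventricular CMs these were -0.87 and -0.90 for detected genes and -0.65 and -0.83 for UMI counts (permutation test, adjusted p = 0.00206, 0.00338, 0.0475 and 0.0118). The UMI relation of CD1 was lost when any of 6 of the 11 stages was left out (E11.5, E12.5, P0, P1, P2 or P3). It was -0.53 without E11.5, with an adjusted p of 0.155 by the permutation test, and -0.37 in the largest well alone, with 0.290. The fall in detected genes held at matched depth. Among cells with 10000 to 20000 UMIs, the samples of CD1 had from 3476 to 3867.5 detected genes before birth and from 3156 to 3520 after it, and those of C57BL/6 had from 3361 to 3702 and from 3039.5 to 3502.5. Median UMI counts inside that window were 15409 and 14499 in CD1 and 16330 and 15648 in C57BL/6. The rank correlation with stage in the window was -0.94 in CD1 and -0.98 over 8 stages in C57BL/6 (permutation test, exact for 8 stages, adjusted p = 0.00035 and 0.0012).

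**Figure D2:**
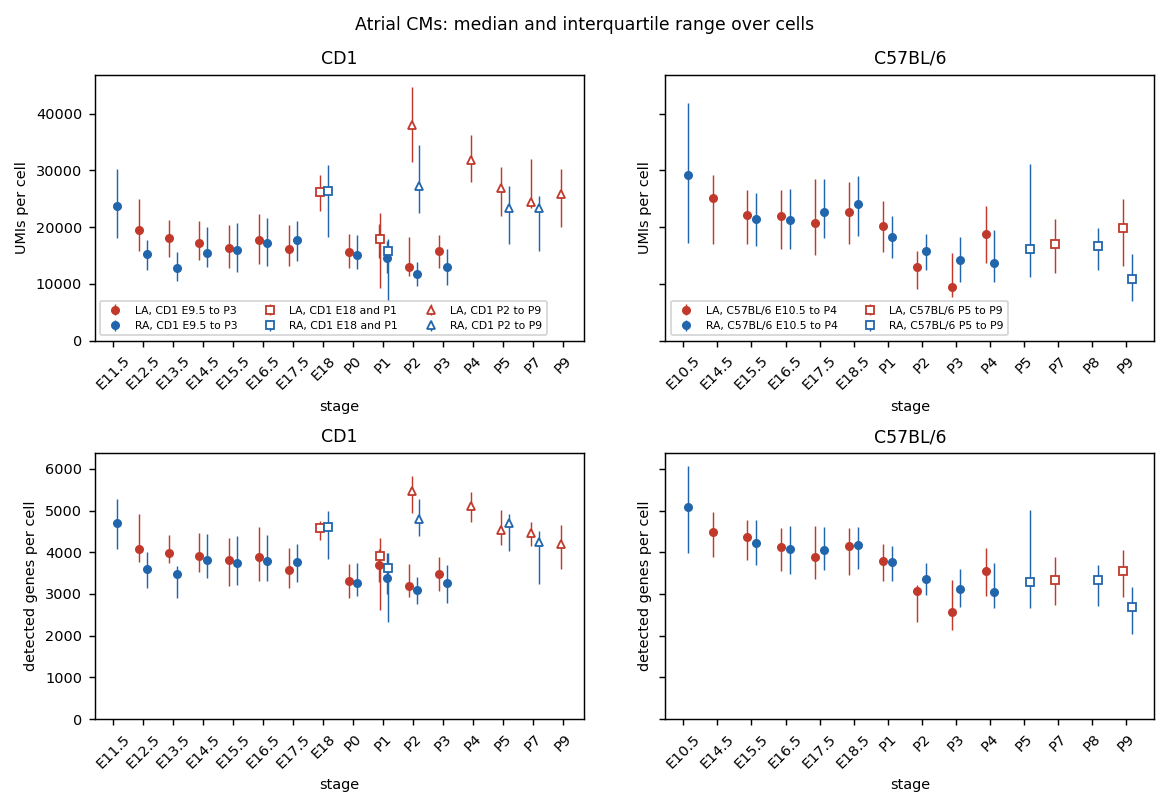
Median UMIs (top) and detected genes (bottom) per atrial CM by stage, for CD1 (left) and C57BL/6 (right); bars are the interquartile range over cells, red is LA, blue is RA, and marker shapes are experiments. In C57BL/6 E10.5 to P4 the sample medians ran from 29257.5 UMIs in the RA of E10.5 to 9528 in the LA of P3, and the samples of CD1 P2 to P9 lay above those of CD1 E9.5 to P3 at P2.

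Left and right atrial CMs were compared stage by stage, since both atria of a stage came from the same pooled hearts. No difference between LA and RA passed the test in either strain after adjustment over 10 comparisons. LA cells of CD1 E9.5 to P3 had more UMIs than RA cells at 9 of 10 stages, by 1.13-fold on average (log2 difference 0.17 ± 0.19, SD over stages). The largest log2 differences were 0.50 at E13.5 and 0.35 at E12.5, where the LA had 18119 and 19481 UMIs and the RA 12812 and 15306, and the exception was E17.5, where the LA had 16110 and the RA 17711. An exact sign-flip permutation test gave p = 0.0195 and an adjusted p of 0.0651, and without E17.5 the difference was 0.20 with an adjusted p of 0.0195.

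Other measures of CD1 went with the UMI count. Detected genes were higher in the LA at 9 of 10 stages, by 168.8 ± 208 genes (SD over stages, exact permutation test, adjusted p = 0.0732), and by 59.2 genes at matched depth (adjusted p = 0.410). The ribosomal protein percentage was 1.04 ± 1.46 points higher in the LA, at 7 of 10 stages (exact permutation test, adjusted p = 0.0651), and 0.65 points higher without P2. The mitochondrial percentage was 1.01 ± 2.18 points lower in the LA, at 8 of 10 stages (exact permutation test, adjusted p = 0.241), and 0.40 points lower without P2. At P2 the LA was 6.52 points below the RA, and that LA sample is the one with 26 ventricular and 14 atrial CMs.

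C57BL/6 E10.5 to P4 showed no common side. LA cells had more UMIs at 4 of 8 stages, with a log2 difference from -0.58 at P3 to 0.46 at P4 and a mean of -0.05 ± 0.31 (SD over stages, exact permutation test, adjusted p = 0.719). At P3 the LA had 9528 UMIs over 15 cells and the RA 14251 over 277, while at P4 the LA had 18809 over 121 cells and the RA 13701 over 123. The mitochondrial percentage differed by 0.77 ± 1.91 points (exact permutation test, adjusted p = 0.420) and was 4.64 points higher in the LA at P3, and the ribosomal protein percentage differed by -0.51 ± 1.34 points (adjusted p = 0.420). With a minimum of 20 cells, which drops P2 and P3, the differences were 0.080 on the log2 UMI scale, -0.054 points and 0.13 points. The difference between the strains in LA minus RA was tested for 5 measures and passed for 0, with the smallest p at 0.0277 for the ribosomal protein percentage (permutation test, adjusted p = 0.133). Each strain was 1 experiment here and their sequencing platforms differed, so strain and experiment cannot be told apart.

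In the smaller experiments LA cells had more UMIs at 3 of 3 stages of CD1 P2 to P9, with 37924.5 against 27320 at P2, 26933 against 23318 at P5 and 24428 against 23299 at P7, of which the P2 samples were those with 15.4 and 19.4% ventricular CMs. In CD1 E18 and P1 the counts were 26197 against 26338 at E18 and 17888.5 against 15731 at P1. With 3 and 2 stages the exact sign-flip permutation test cannot go below p = 0.25 and p = 0.5, so no test could pass there. At P9, the 1 stage of C57BL/6 P5 to P9 with enough cells in both atria, the LA had 19836.5 UMIs over 48 cells and the RA 10942 over 94.

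**Figure D3:**
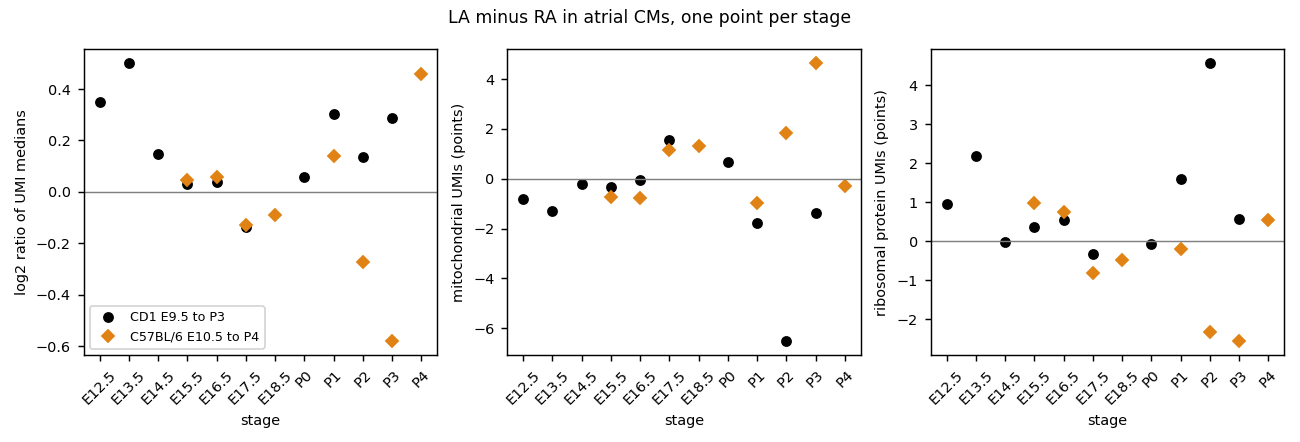
LA minus RA in atrial CMs at each stage with at least 10 cells in both atria, as the log2 ratio of median UMI counts (left) and as differences in percentage points of mitochondrial (middle) and ribosomal protein UMIs (right); black circles are CD1 E9.5 to P3 and orange diamonds C57BL/6 E10.5 to P4. In CD1 9 of 10 UMI ratios lie above 0, in C57BL/6 4 of 8 do, and the CD1 point of P2 lies apart at -6.52 and 4.56 points.

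LA and RA samples are digested and barcoded separately, so the same difference was taken in the other cells of each sample, which are all cells that are not CMs. These mix several cell types, whose proportions in LA and RA were not compared. The comparison was chosen after seeing the data. In CD1 E9.5 to P3 the LA minus RA difference in ribosomal protein percentage was larger in atrial CMs than in the other cells at 10 of 10 stages, by 1.21 ± 0.57 points (SD over stages, exact permutation test, adjusted p = 0.0156 over 8 comparisons). It ranged from 0.23 points at E13.5 to 2.13 points at P1. The same sign was found at 2 of 2 stages of CD1 E18 and P1 and at 3 of 3 stages of CD1 P2 to P9, with means of 1.14 and 0.44 points. In C57BL/6 E10.5 to P4 it was -0.46 ± 1.54 points, above 0 at 3 of 8 stages (exact permutation test, adjusted p = 0.477). For UMI counts, detected genes and mitochondrial percentage this comparison passed in neither strain.

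The LA held a lower share of atrial CMs than the RA at 8 of 9 stages in C57BL/6 E10.5 to P4 (both were 0 at E11.5), by 10.7 ± 9.81 points (SD over stages, exact permutation test, p = 0.00781 and adjusted p = 0.0651). The CD1 E9.5 to P3 share was lower in the LA at 10 of 13 stages, by 10.7 ± 19.2 points (permutation test, adjusted p = 0.113). Neither difference passed after adjustment. In the later experiments the LA had the higher share at 3 of 5 stages of CD1 P2 to P9, for example 51.2% against 26.8% at P2, and at 2 of 3 stages of C57BL/6 P5 to P9, for example 42.5% against 23.4% at P9.

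Atrial CMs were set against the other cells of the same samples, which shared their digestion, barcode and wells. Atrial CMs had more UMIs at every stage tested, by 1.80-fold in CD1 E9.5 to P3 (log2 difference 0.84 ± 0.17, 11 of 11 stages) and by 2.03-fold in C57BL/6 E10.5 to P4 (1.02 ± 0.31, 10 of 10 stages). Their mitochondrial percentage was higher at every stage, with means of 12.1 against 5.77% in CD1 and of 11.3 against 4.62% in C57BL/6. Their ribosomal protein percentage was lower at every stage, with means of 10.7 against 17.0% and of 11.6 against 18.2%. An exact sign-flip permutation test gave an adjusted p of 0.00195 for each of these 6 comparisons. Without atrial samples over 10% ventricular CMs the mitochondrial differences were 6.55 and 6.99 points and passed in both strains (exact permutation test, adjusted p = 0.00195 and 0.00391).

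The mitochondrial gap between atrial CMs and other cells widened with stage. The gap in CD1 E9.5 to P3 was 4.23 points at E11.5, 1.86 at E15.5, 3.57 at E16.5, 5.60 at E17.5, 9.42 at P0 and 11.7 at P3. The gap in C57BL/6 E10.5 to P4 was 4.10 points at E10.5, 2.72 at E16.5, 4.56 at E18.5, 7.56 at P1 and 12.9 at P4. Other cells did not share the rise around birth, since their stage level was 6.66% at E16.5 and 4.96% at P3 in CD1, and 5.25% and 3.66% at E16.5 and P4 in C57BL/6. The rank correlation of the gap with stage was 0.71 in CD1 and 0.87 in C57BL/6 (permutation test, adjusted p = 0.0250 and 0.00456). The CD1 value fell to 0.61 without E17.5 (adjusted p = 0.0880 by the permutation test), and leaving out P0, P1, P2 or P3 also raised its adjusted p above 0.05, with rho from 0.61 to 0.65. By the mean over cells the CD1 value was 0.61 and did not pass either.

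In the later experiments the gap was 11.9 ± 1.48 points over 5 stages of CD1 P2 to P9 and 13.8 ± 0.78 points over 4 stages of C57BL/6 P5 to P9 (SD over stages), with atrial CMs above the other cells at every stage, and 12.2 points without P2 in the former. The smallest p that 5 and 4 stages allow is 0.0625 and 0.125, and the exact permutation test gave those values. The ribosomal protein gap also grew with stage, with rho of -0.68 in CD1 and -0.94 in C57BL/6 (permutation test, adjusted p = 0.0264 and 0.00076), but at matched depth it was -0.57 and -0.31 (permutation test, adjusted p = 0.0961 and 0.462). The CD1 relation was also lost without blood cells (-0.61, permutation test, adjusted p = 0.0527) and when E17.5, P0, P1, P2 or P3 was left out, with rho from -0.58 to -0.65.

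Atrial CMs were then compared with the ventricular CMs of the same pooled hearts, which were dissected and digested as separate samples. The mitochondrial percentage was lower in atrial CMs at 10 of 10 stages of CD1 E9.5 to P3, with means of 11.9 against 14.7% and a difference of -2.84 ± 2.14 points (SD over stages, exact permutation test, adjusted p = 0.0156). It was lower at 8 of 8 stages of C57BL/6 E10.5 to P4, with means of 10.2 against 15.3% and a difference of -5.08 ± 2.77 points (exact permutation test, adjusted p = 0.0312). The direction was the same but the test did not pass in the largest well alone, at -2.06 over 9 stages and -4.70 over 7 (exact permutation test, adjusted p = 0.05 in each), nor at matched depth in C57BL/6, at -6.12 over 6 stages (adjusted p = 0.0625). In CD1 the difference was -0.23 points at E11.5, -0.04 at E12.5, -0.63 at E13.5, -1.13 at E14.5, -3.86 at E15.5, -3.95 at E16.5, -3.57 at E17.5, -4.63 at P0, -4.29 at P1 and -6.11 at P3. The 2 kinds of CM thus lay within about 1 point of each other up to E14.5 and apart from E15.5 on. In C57BL/6 it was -4.06 points at E10.5, -0.43 at E14.5, -3.01 at E15.5, -4.49 at E16.5, -6.99 at E17.5, -5.08 at E18.5, -9.34 at P1 and -7.25 at P3.

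**Figure D4:**
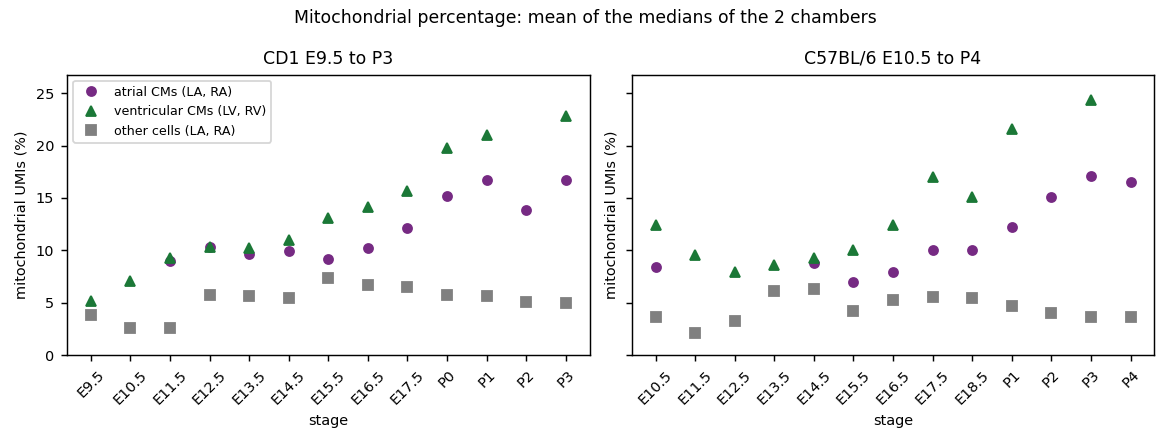
Mitochondrial percentage by stage in CD1 E9.5 to P3 (left) and C57BL/6 E10.5 to P4 (right), as the mean of the medians of the chambers with at least 10 cells; circles are atrial CMs, triangles ventricular CMs and squares the other cells of LA and RA. In CD1 atrial and ventricular CMs differ by -0.04 points at E12.5 and by -6.11 points at P3, while the other cells lie between 2.63% (E11.5) and 7.33% (E15.5) over the 11 stages with atrial CMs.

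Detected genes were more numerous in atrial than in ventricular CMs, by 297.5 ± 278 genes at 8 of 10 stages in CD1 and by 542.7 ± 401 at 7 of 8 in C57BL/6 (SD over stages, exact permutation test, adjusted p = 0.0312 in each). Both calls were lost with single stages left out. Leaving out any of 6 of the 10 CD1 stages (E11.5, E14.5, E15.5, E16.5, E17.5 or P1) took the adjusted p to 0.0547, and any of 7 of the 8 C57BL/6 stages (all but P3) took it to 0.0625. They were also lost in CD1 with at least 4000 UMIs and at most 20% mitochondrial UMIs (212 genes, adjusted p = 0.175) and in C57BL/6 without atrial samples over 10% ventricular CMs (469 genes, adjusted p = 0.0625), by the same exact permutation test. At matched depth the differences were 211.5 and 273.1 genes, with adjusted p of 0.0312 and, over 6 stages, 0.0625 (exact permutation test). UMI counts differed by 0.08 ± 0.18 in CD1 and 0.24 ± 0.34 in C57BL/6 on the log2 scale (exact permutation test, adjusted p = 0.223 and 0.0938), and ribosomal protein percentages by -0.05 ± 0.61 and 0.96 ± 1.31 points (adjusted p = 0.783 and 0.0750). No ventricular sample of P2 in either strain or of P4 in C57BL/6 had 10 ventricular CMs, so these stages were not compared. The value of E10.5 in C57BL/6 rests on the RA sample in which 55.1% of the CMs were ventricular. Without atrial samples over 10% ventricular CMs the mitochondrial difference was -2.84 in CD1 and -5.23 points in C57BL/6.

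The authors clustered atrial CMs on their own within each strain, after correction for batch, and the atrium of a cell was not used in that step. Both large experiments held 12 sub-clusters, known here by number. In CD1 E9.5 to P3, 2 sub-clusters were over 90% LA and 4 over 90% RA, and these held 43.5% of the cells. In C57BL/6 E10.5 to P4, 3 were over 90% LA and 3 over 90% RA, with 60.6% of the cells. Most of the one-sided sub-clusters came from late stages. In CD1, sub-cluster 6 was 99.1% LA and 95.4% P0, sub-cluster 9 was 97.6% RA and 86.7% P0, and sub-cluster 4 was 99.2% RA with P2 as its main stage. In C57BL/6, sub-cluster 0 was 99.6% LA and 96.2% P1, sub-cluster 1 was 98.1% RA and 85.1% P1, and sub-cluster 5 was 98.9% RA and 74.9% P3. Sub-cluster 10 of CD1 was 95.3% RA and 91.3% E11.5. Some of these stages were themselves sampled on one side: E11.5 of CD1 had 9 LA and 283 RA cells, P2 of CD1 had 14 and 165, and P3 of C57BL/6 had 15 and 277, so a sub-cluster drawn from them is mostly RA whatever its LA cells do.

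How far LA and RA differed was measured as the share of cells that would have to change sub-cluster for the 2 atria to have the same composition, against the same distance between wells within an atrium. This distance in CD1 E9.5 to P3 was 58.9% at E12.5, 15.04% at E14.5, 13.1% at E15.5, 31.7% at E16.5, 67.9% at E17.5, 78.7% at P0, 79.9% at P1 and 71.3% at P3, and the distance between wells was 6.74 to 22.9%. For C57BL/6 E10.5 to P4 it was 14.3% at E15.5, 16.4% at E16.5, 51.3% at E17.5, 51.7% at E18.5, 81.6% at P1 and 77.1% at P4, with 3.61 to 23.1% between wells. In both strains the atria lay as close as 2 wells of one atrium at E15.5 and moved apart from E17.5 on. CD1 had a further high value at E12.5, which rests on 41 LA and 120 RA cells. E13.5 of CD1, with 34 LA and 29 RA cells, had too few RA cells for a distance. Of these RA cells 58.6% lay in sub-cluster 8, and none of the LA cells did. The atria of CD1 thus also differed before E14.5, and the course was high, then low, then high again.

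The distance exceeded that between wells by 39.0 ± 30.5 points in CD1, at 7 of 8 stages (SD over stages, exact permutation test, p = 0.0156 and adjusted p = 0.0312). The excess was 34.2 ± 31.5 points in C57BL/6, at 5 of 6 stages (exact permutation test, p = 0.0625). The rank correlation with stage was 0.76 in CD1 and 0.94 in C57BL/6 (exact permutation test, adjusted p = 0.0368 and 0.0333). The CD1 value does not stand for a steady rise, since the distance was 58.9% at E12.5 and 15.04% at E14.5, and it leaves out E13.5. Both relations with stage missed the threshold with at least 4000 UMIs and at most 20% mitochondrial UMIs, at 0.69 and 0.89 (exact permutation test, adjusted p = 0.0694 and 0.0667), and without the 10% highest doublet scores, at 0.76 and 0.83 (adjusted p = 0.0583 in each). The CD1 calls were also sensitive to single stages. Leaving out any of 7 of the 8 CD1 stages took the adjusted p of the excess to 0.0625 (exact permutation test), with the excess from 34.3 to 43.9 points, and E15.5 was the exception. The rank correlation in CD1 was lost without E16.5, E17.5, P0, P1 or P3 and was lowest, 0.64, without E17.5 (exact permutation test, adjusted p = 0.139).

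**Figure D5:**
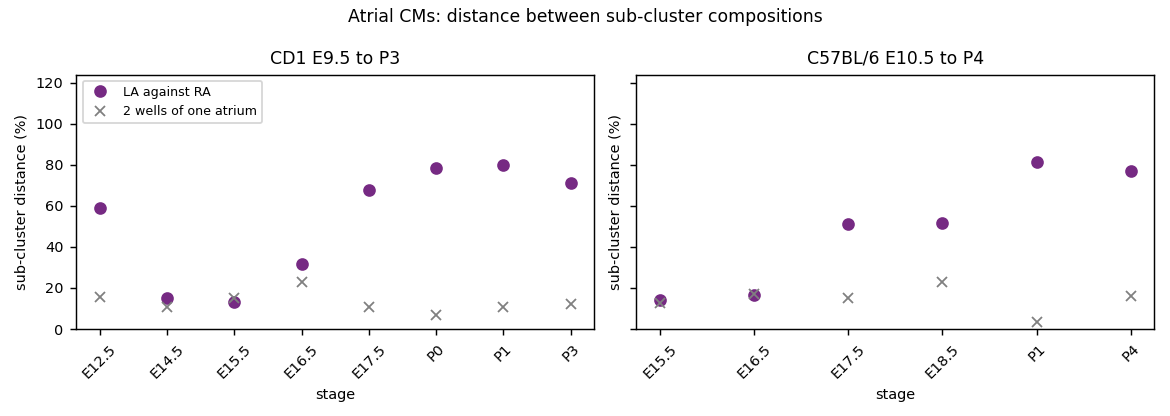
Distance between the sub-cluster compositions of LA and RA atrial CMs by stage (purple circles) and mean distance between wells within an atrium (grey crosses), in percent, for CD1 E9.5 to P3 (left) and C57BL/6 E10.5 to P4 (right). At E15.5 circle and cross nearly coincide (13.1 and 15.1% in CD1, 14.3 and 12.6% in C57BL/6), and at P1 they lie far apart (79.9 and 10.8%, 81.6 and 3.61%).

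The same shift after E16.5 was seen in the shares of cells in one-sided sub-clusters. Of the LA cells of CD1 E9.5 to P3, 2.99% lay in LA sub-clusters at E15.5, 23.2% at E16.5, 67.5% at E17.5, 80.5% at P0 and 74.8% at P1. Of the RA cells, 13.1% lay in RA sub-clusters at E14.5, 2.24% at E16.5, 12.3% at E17.5, 70.8% at P0, 80% at P1 and 90.3% at P2, while at E11.5 98.6% did and at E12.5 80% of 120 cells did. The 9 LA cells of E11.5 lay in RA sub-clusters too, 4 in number 8 and 5 in number 10. At E12.5 22.0% of 41 LA cells did. The RA share of CD1 was therefore high at the earliest stages as well as after birth, but at E11.5 it did not set the atria apart. At E17.5 of CD1 most LA cells thus lay in one-sided sub-clusters and most RA cells did not, and the same held at E18 in CD1 E18 and P1, with 58.3% of 12 LA cells and 12.9% of 202 RA cells. In C57BL/6 E10.5 to P4 the LA share was 3.28% at E16.5, 40.1% at E17.5 and 81.1% at P1, and the RA share 15.45%, 57.8% and 76.9%, so at E17.5 it was the RA that had the higher share. These shares describe sub-clusters that were sorted by atrium in the same cells, so they carry no test.

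Sub-clusters also differed in depth and quality. Sub-cluster 13 of CD1 E9.5 to P3 held 78 cells with a median of 5952.5 UMIs and 23.4% mitochondrial UMIs, and sub-cluster 8 of C57BL/6 E10.5 to P4 held 218 cells with 8808 UMIs and 26.2%. Neither was one-sided, at 70.5% and 80.3% RA. Of the one-sided sub-clusters, number 7 of C57BL/6 (193 cells, 99.5% LA) had the highest mitochondrial percentage, 22.9%, at 13508 UMIs. Their part in the separation of the atria was not tested.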

How the data were processed

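Per the submitters' processing notes the authors used Cell Ranger 3.1.0, GRCm38.p4 and Seurat. Cells were assigned to samples by MULTI-seq barcode, and doublets were removed, before deposit. The deposited tables hold 1 line per cell, with raw UMI counts, counts of detected genes, the percent of UMIs on mitochondrial and on ribosomal protein genes, and a doublet score, all computed by the authors. Deposited cells had at least 2000 UMIs and at most 30% mitochondrial UMIs. Stage, chamber, sub-cluster and cell type are the authors' labels. Of the columns of both wild-type tables, 94 were not used, and the mutant samples were not analysed here.

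Samples with at least 10 atrial CMs were summarized by medians over cells (the log2 scale for UMI counts), and the atria of a stage with such a median were averaged. Trends over the order of the stages were tested by permuting Spearman's rho or Pearson's r (two-sided, 100000 resamples, exact under 10 stages), and differences by exact two-sided sign-flip permutation over stages. Shares were compared where a sample had at least 20 cells, and sub-cluster compositions where both atria had 30 atrial CMs. P-values were adjusted by Benjamini and Hochberg within each family of comparisons over the 2 large experiments (threshold 0.05). Experiments with fewer than 6 stages entered no adjusted test. Intervals of shares are exact (Clopper-Pearson) and cover counting error only. The cells and comparisons were chosen with earlier results of these data known. Ribosomal protein percentages, the gap to other cells against stage, LA minus RA set against other cells, the comparison of strains and the added settings were chosen after seeing the data. The tests were checked on simulated data. Python 3.11.15, numpy 2.4.6, pandas 2.3.3, scipy 1.17.1 and matplotlib 3.10.9 were used. The rule for named genes gave none, because these tables hold no values per gene.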

Additional observations from a re-analysis of the deposited data

Results flagged for a closer look

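At P2 of CD1 E9.5 to P3, LA minus RA stood apart from the other 9 stages, at -6.52 points for the mitochondrial percentage and at 4.56 points for the ribosomal protein percentage of atrial CMs. The LA sample there held 14 atrial and 26 ventricular CMs. Of the 14, 4 lay in sub-cluster 1 and others in 2, 3, 5 and 7, whose most frequent stage was E14.5. Sub-cluster 0 (E17.5) held 2 of them, and sub-clusters 6 and 9 (P0) held 1 each. Ventricular CMs of LV and RV had 21.0% mitochondrial UMIs at P1 and 22.8% at P3, against 16.7% in atrial CMs at both stages. Why this LA sample differed was not tested. At P3 of C57BL/6 E10.5 to P4 the difference in the share of atrial CMs stood apart at -32.8 points, with 17.9% in the LA and 50.6% in the RA. Groups tested for such a stage numbered 37, of which chance flags about 1 in 20. None of these flags passed after adjustment, with q of 0.586, 0.488 and 0.551 in the order given by the test for an outlying stage.

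Atrial CMs also carried ventricular barcodes, which no comparison above used. In C57BL/6 they numbered 125 of 13615 cells of LV and RV samples (0.918%, exact 95% interval 0.765 to 1.09%), and in CD1 53 of 16354 (0.324%, 0.243 to 0.424%). Of the 125, 66 came from C57BL/6 P5 to P9, where they were 7.80% of the ventricular samples' cells and 94.3% of their CMs, beside 4 ventricular CMs. Their median doublet score in C57BL/6 E10.5 to P4 was 0.212, against 0.161 for atrial CMs of the atria, and in C57BL/6 P5 to P9 0.108 against 0.112. In CD1 E9.5 to P3 it was 0.307 against 0.203. It was 0.250 against 0.372 in CD1 E18 and P1, over 7 cells, and 0.049 against 0.153 in CD1 P2 to P9, over 4 cells. Why they carried these barcodes was not tested.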

How the results depend on the processing

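In the 2 large experiments, 297 of 338 values under other settings and 353 of 403 with a stage left out kept their direction and their side of the threshold, or moved by less than the spread, and 0 called values changed sign. The relations of mitochondrial percentage, ribosomal protein percentage and detected genes with stage kept theirs under every setting run, as did the 6 differences from other cells. The causes of the changes below were not tested, except that fewer stages raise the smallest p. Differences between atria and between cell types are paired by stage within an experiment. Beyond that, no paired analysis was possible by replicate number, because each experiment is 1 sample with the number 1.

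UMI count against stage in CD1 was -0.52 with at least 4000 UMIs and at most 20% mitochondrial UMIs, -0.37 in the largest well, -0.49 with LA and RA cells pooled, -0.53 with stages that have both atria and -0.51 in the RA alone, and in C57BL/6 it was -0.76 with both atria. The share of atrial CMs against stage was -0.10 in CD1 without blood cells, and -0.11 (CD1) and -0.63 (C57BL/6) without atrial samples over 10% ventricular CMs. LA minus RA in C57BL/6 changed side. It was 0.080 (UMI, log2), 87.9 genes, -0.054 points (mitochondrial) and 0.13 points (ribosomal protein) with a minimum of 20 cells, 0.086 (UMI), 134.5 genes and 0.22 points (ribosomal protein) with the depth and mitochondrial filter, 0.12 points (ribosomal protein) in the largest well and 42.3 genes at matched depth.

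Atrial minus ventricular CMs gave 212 genes (filter) and 261.1 genes (largest well) in CD1 and 665.8 (largest well), 273.1 (matched depth) and 469 genes (without atrial samples over 10% ventricular CMs) in C57BL/6. The mitochondrial difference was -2.06 (CD1) and -4.70 points (C57BL/6) in the largest well and -6.12 points at matched depth in C57BL/6, none of which passed. UMI counts of C57BL/6 passed at 0.28 (minimum of 20) and 0.29 (filter), and ribosomal protein percentages at 1.06 (minimum of 20) and 1.18 points (mean over cells), while in CD1 the latter was 0.084 points.

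The gap to other cells against stage was 0.61 for mitochondrial percentage in CD1 by the mean over cells, and for ribosomal protein percentage -0.57 (CD1) and -0.31 (C57BL/6) at matched depth and -0.61 in CD1 without blood cells. The sub-cluster distance against stage was 0.69 (CD1) and 0.89 (C57BL/6) with the filter and 0.76 and 0.83 without the 10% highest doublet scores, none of which passed. Its excess was 34.9 points with a minimum of 50 cells in CD1, which failed, and 34.9 points without those doublet scores in C57BL/6, which passed.

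With 1 stage left out in turn, UMI count against stage in CD1 ran from -0.79 to -0.53. LA minus RA in CD1 ran from 0.13 to 0.20 (UMI, log2), from 132.3 to 206.8 genes, from 0.65 to 1.19 points (ribosomal protein) and from -12.8 to -6.87 points (share), and passed for all of these only without E17.5, the stage farthest the other way in each. In C57BL/6 it ran from -0.12 to 0.030 (UMI) and from -118.6 to 35.2 genes. Atrial minus ventricular CMs ran from 253.8 to 353.6 genes and from -0.16 to 0.025 points (ribosomal protein) in CD1, and from 469 to 635 genes, from 0.18 to 0.32 (UMI) and from 0.62 to 1.17 points (ribosomal protein) in C57BL/6. The gap to other cells against stage in CD1 ran from 0.61 to 0.78 (mitochondrial) and from -0.75 to -0.58 (ribosomal protein), and the CD1 sub-cluster distance from 0.64 to 0.86 against stage and from 34.3 to 44.8 points in excess. Samples of under 20 cells have the least precise medians.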
